A study of Homo sapiens with 6 samples.

Results

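The genes INSM1, ISL1, NEUROD1, CHGA, SYP, NCAM1, UCHL1, ENO2 and STMN2 were followed as markers of neuroendocrine and neuronal identity. They were taken by gene symbol from a table of read counts per gene, and all 9 were found once among its 60623 genes. Bulk RNA sequencing had been done on 6 libraries labelled PANC-1, an established cell line from a human pancreatic ductal carcinoma, grown in DMEM with fetal bovine serum. The labels describe 3 biological replicates with a hairpin against STN1 (columns named Sh4, genotype given as STN1, STN2 and STN3 knockdown in turn) and 3 with a control hairpin (columns named scramble, genotype WT). Only the hairpin label separates the groups. Nothing says that the replicates were separate cultures, so each p-value reflects variation among these 6 libraries alone, and that variation may be technical.

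Neuroendocrine cells release peptides or amines from dense-core granules, as neurons do, and share with them a set of transcription factors, granule and vesicle proteins, adhesion molecules and cytosolic enzymes. INSM1 and NEUROD1 act in the formation of endocrine cells of pancreas and gut, and ISL1 in islet cells and motor neurons. In pathology, chromogranin A (CHGA), synaptophysin (SYP), CD56 (NCAM1) and INSM1 are stained to tell neuroendocrine tumours from ductal carcinoma, whereas UCHL1 and ENO2 are less restricted. Exocrine carcinoma lines can still transcribe some of these genes.

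The libraries held between 17357223 and 23336942 counted reads. STN1, the targeted gene, had 387, 346 and 278 reads in control and 303, 306 and 275 in the shSTN1-labelled libraries. Its log2 fold change was -0.15 (edgeR adjusted p = 0.253), and -0.35 without scaling factors (edgeR adjusted p = 0.00909). The libraries labelled control went against their line label in 1 gene that PANC-1 is described as lacking: CDKN2A had 11753 reads in them and 0 in the shSTN1-labelled libraries. IRS4 had 20505 against 3 reads. Of the 12 markers listed for an embryonic kidney line, 9 of 11 tested were lower and 1 higher in the shSTN1-labelled libraries, with summed levels of 97.9 to 102 CPM (reads scaled to the library's effective size) against 935 to 1006 in control, and CDKN2A, HMX1 and SALL1 at 0 reads. Of 18 markers of a pancreatic ductal carcinoma line, 13 of 14 tested were higher and 1 lower, with sums of 6321 to 6497 against 1125 to 1167 CPM and none at 0 reads in either group. Over all genes tested, 38.5% were lower and 35.6% higher (edgeR adjusted p under 0.05). These marker lists were written with earlier results known, and their part in the results below was not tested. The identity of the cells and the hairpin cannot be told apart in this design, so every difference is between libraries as labelled.

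Of the 9 genes, 7 had enough reads for the test, and all 7 were lower in the shSTN1-labelled libraries, with 0 higher. By the same test (edgeR adjusted p under 0.05), 74.1% of all 17451 genes tested passed, 38.5% lower and 35.6% higher, so passing alone says little about these genes. Without scaling factors the split of all genes was 4940 higher and 8060 lower, against 6209 and 6720. The sizes spanned a wide range. INSM1, UCHL1, NCAM1 and ISL1 were at least 10-fold lower, a fall seen in 5.94% of all genes tested, and with CHGA 5 were at least 2-fold lower (19% of all genes). CHGA's place in that count rests on single libraries, since without shSTN1 replicate 3 its log2 fold change was -0.82 (edgeR adjusted p = 0.205). CHGA, SYP and ENO2 fell by 1.25, 0.45 and 0.57 on the log2 scale. The libraries of the groups did not overlap in 6 of the 7, against 75.6% of all genes. Of the 6 members at 1 CPM or more in control, all passed and 4 were at least 10-fold lower. Among all genes at that level, 76.9% and 6.14% did so. Choosing genes by their control level favours those that are lower in the other group. INSM1, ISL1, NCAM1 and CHGA also met the read filter through the control libraries only, so the counts of tested members lean towards lower. The median log2 fold change was -3.69 over the 7 genes and -0.03 over all genes. These genes were picked with earlier results known, so the counts describe them and test nothing about the set. NEUROD1 and STMN2 were near the detection limit and were not tested. In bulk RNA, fewer cells with a transcript and less of it per cell cannot be told apart.

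**Figure D1:**
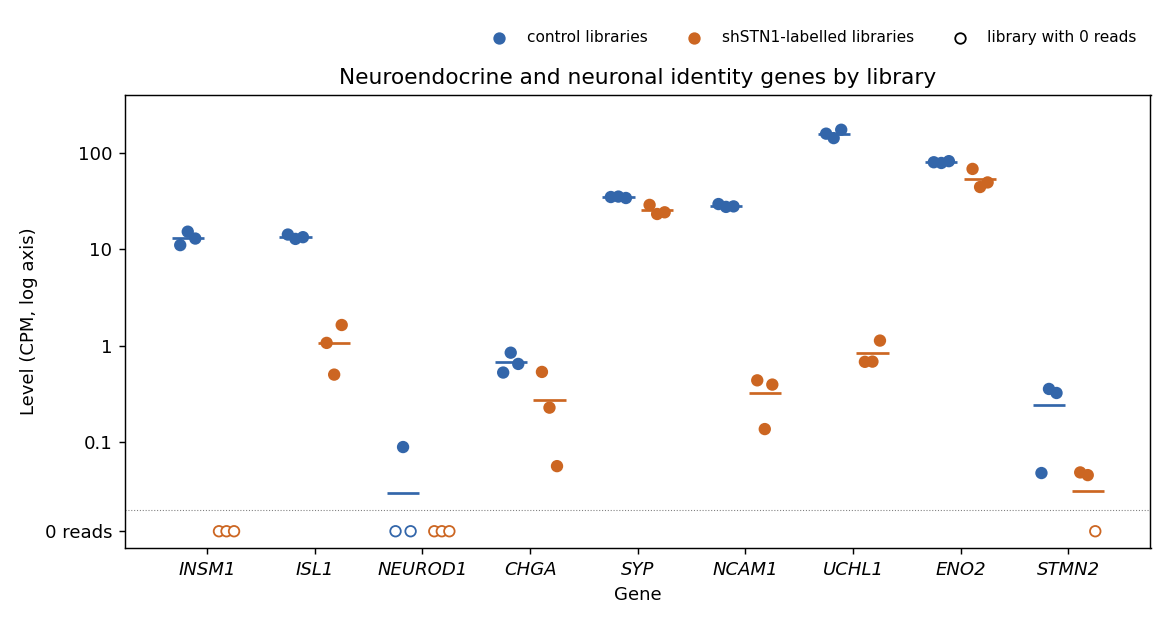
Level of each gene in each library in CPM on a log axis, with filled points for libraries, horizontal lines for means of 3 libraries and open points for libraries with 0 reads. The mean levels of ISL1, NCAM1 and UCHL1 lie at least 10-fold apart and INSM1 is at 0 reads in the shSTN1-labelled libraries, SYP and ENO2 lie close together without overlap, and CHGA overlaps.

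INSM1 (ENSG00000173404.5, chromosome 20, 20368121 to 20370949, GRCh38) encodes a zinc finger transcription factor that promotes neuroendocrine differentiation. Control replicates 1 to 3 gave 230, 341 and 239 reads, and each shSTN1-labelled library 0. All control libraries were therefore well above the detection limit and all others below it. The control level was 13.1 ± 2.10 CPM (SD, n = 3), and the 0 reads allow up to 0.0501 CPM over the 3 shSTN1-labelled libraries together. The fall of INSM1 was at least 263-fold (edgeR adjusted p = 2.36e-19), a bound that takes 3 reads over the group as its floor and covers counting error only.

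ISL1 (ENSG00000016082.15, chromosome 5, 51383391 to 51394738) encodes a LIM homeodomain factor. It stood at 14.2, 12.8 and 13.4 CPM in control replicates and at 1.07, 0.504 and 1.65 CPM with the shSTN1 label. Its transcript thus stayed detectable in each library, unlike that of INSM1, and the groups did not overlap. In edgeR, ISL1 fell by 3.69 on the log2 scale (SE 0.449, adjusted p = 2.28e-16). The SE, here and below, is that of the difference of mean log2 CPM and not of the edgeR value. ISL2, its closest relative, fell by 2.89 on the log2 scale, from 21.4 ± 1.96 to 2.90 ± 0.970 CPM.

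NEUROD1 (ENSG00000162992.3, chromosome 2, 181673088 to 181680876), a basic helix-loop-helix factor, had 2 reads in control replicate 2 and 0 in the other 5 libraries. It was at or under the floor in both groups, and no fold is given. The proneural gene NEUROG3, which acts upstream of INSM1 and NEUROD1 in endocrine progenitors, had 0 reads in all 6 libraries. NEUROG2 went from 102 reads to 0, at least 33.1-fold lower.

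Of 42 other transcription factor genes listed for neuroendocrine and neuronal cells, 29 were tested, of which 20 were lower, 3 higher and 6 did not pass (median log2 fold change -1.95). Among all genes tested, 38.5% were lower and 35.6% higher. POU4F1, a POU factor of sensory neurons, fell from 75.3 ± 2.12 CPM to 3 reads over 3 libraries, a ratio of 1506 (95% exact interval 515 to 7305, counting error only), with all 3 reads in shSTN1 replicate 2. ID2 (-2.29), ID4 (-4.43) and LMO4 (-1.04), which bind or modulate transcription factors, were also lower, as was the transcription factor gene SOX4 (-0.63). FOXA2, a forkhead factor of endoderm, was higher at 129 ± 2.19 against 17.3 ± 0.479 CPM, and ID1 rose by 1.07 on the log2 scale. HES1, a Notch target that represses proneural genes, did not pass, at 38.6 ± 3.27 against 35.9 ± 0.261 CPM (edgeR adjusted p = 0.28).

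CHGA (ENSG00000100604.13, chromosome 14, 92923080 to 92935293) encodes the main soluble protein of dense-core granules. It had 11, 19 and 12 reads in control and 11, 5 and 1 in the shSTN1-labelled libraries, all under 1 CPM. The groups overlapped, since shSTN1 replicate 1 (0.537 CPM) lay above control replicate 1 (0.529 CPM). edgeR put CHGA at -1.25 on the log2 scale (SE 0.612, adjusted p = 0.0366). The call was lost without control replicate 2 (edgeR adjusted p = 0.149), control replicate 3 (0.0722), shSTN1 replicate 2 (0.117) or shSTN1 replicate 3 (0.205), without the low-count filter (0.0688) and by DESeq2 (log2 fold change -1.29, adjusted p = 0.0913). The value ranged from -2.12 without shSTN1 replicate 1 to -0.82 without shSTN1 replicate 3.

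Of 29 listed genes for granule proteins and peptide processing, 12 were tested, with 5 lower, 5 higher and 2 that did not pass (median -0.70), beside 38.5% lower and 35.6% higher among all genes. Without scaling factors the list had 7 lower and 3 higher. CPE, a carboxypeptidase of prohormones, fell from 62.8 ± 0.799 to 3.86 ± 0.426 CPM, and GAL, the galanin gene, from 92.9 ± 8.54 to 32.3 ± 0.998 CPM. CHGB, the paralog of CHGA, rose from 4.28 ± 0.376 to 14.6 ± 1.80 CPM (log2 fold change 1.76, edgeR adjusted p = 2.1e-12). VGF, a granin-like neuropeptide precursor, rose from 20.2 ± 2.14 to 127 ± 6.83 CPM. The hormone genes INS and GCG had 0 reads in all 6 libraries, and SST had 1 read in all. Of the 12 endocrine pancreas markers, which include these hormones, 5 were tested, with 3 lower, among them ABCC8 and NKX6-1, and 1 higher (MAFA). Their summed level spanned 51.6 to 53.9 CPM in control replicates, and 19.3 to 20.9 with the shSTN1 label, with G6PC2 also at 0 reads throughout.

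SYP (ENSG00000102003.10, chromosome X, 49187804 to 49200259) encodes an integral membrane protein of small synaptic vesicles. It stood at 34.9, 35.3 and 34.1 CPM in control replicates and at 28.9, 23.3 and 24.2 CPM with the shSTN1 label. The groups did not overlap, but the gap was small. SYP thus kept 73.3% of its control level, with a log2 fold change of -0.45 (SE 0.0968, adjusted p = 1.21e-04 in edgeR). The 95% interval from limma-voom ran from -0.65 to -0.26. Its relatives moved further and apart: SYPL1 rose from 66.4 ± 1.76 to 141 ± 4.64 CPM, and SYPL2 fell from 15.5 ± 0.810 to 1.09 ± 0.191 CPM. Of 34 other vesicle and exocytosis genes, 28 were tested, of which 13 were lower, 8 higher and 7 did not pass (median -0.21). The share that passed, 75%, was near the 74.1% of all genes tested. DNM1 (-1.82), SYNGR1 (-1.99), SV2A (-3.18) and VAMP2 (-0.79) were lower, and SYNGR2 (0.46), STX1A (1.89), SYT11 (0.75) and SYT5 (1.55) higher.

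NCAM1 (ENSG00000149294.16, chromosome 11, 112961247 to 113278436) encodes the neural cell adhesion molecule CD56. It stood at 29.5, 27.6 and 27.9 CPM in control replicates and at 0.439, 0.137 and 0.397 CPM with the shSTN1 label, where the libraries held 19 reads in all. The control libraries lay close together, and all of them far above the shSTN1-labelled ones. NCAM1 fell by 6.45 on the log2 scale (SE 0.379, adjusted p = 2.08e-23 in edgeR). Antisense transcripts within NCAM1, AP000802.1 and NCAM1-AS1, had 34 and 25 control reads and 0 in the shSTN1-labelled libraries. Since the strand setting of the counting is not given, these few reads cannot be told from NCAM1 reads. NCAM2 had 31 and 39 reads (edgeR adjusted p = 0.468).

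Among 21 other neural adhesion genes, 16 were tested, with 9 lower, 5 higher and 2 that did not pass (median -0.38). Over all genes tested, 38.5% were lower and 35.6% higher. CADM1 fell from 74.4 ± 6.54 to 5.42 ± 0.626 CPM and NRCAM from 12.2 ± 2.02 to 0.166 ± 0.111 CPM. ALCAM (-1.05) and NLGN2 (-0.53) fell by less. L1CAM, a relative of NCAM1 in the immunoglobulin superfamily, rose from 52.8 ± 2.65 to 227 ± 7.75 CPM, and CD24 from 29.4 ± 2.37 to 309 ± 22.4 CPM. ST8SIA4, which adds polysialic acid to NCAM1, rose by 1.20 on the log2 scale, while its carrier was nearly without reads. ST8SIA2, the other polysialyltransferase, had 2 and 4 reads.

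UCHL1 (ENSG00000154277.13, chromosome 4, 41256413 to 41268455) encodes a ubiquitin C-terminal hydrolase abundant in neurons. It had 3288, 3180 and 3205 reads in control and 14, 15 and 20 in the shSTN1-labelled libraries, or 158, 142 and 174 against 0.684, 0.687 and 1.14 CPM. It was the most abundant of the 9 genes in control, and its shSTN1-labelled level was 0.528% of that. UCHL1 fell by 7.58 on the log2 scale (SE 0.233), with an adjusted p of 5.31e-30 in edgeR. Antisense UCHL1-AS1 had 0 reads in both groups.

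ENO2 (ENSG00000111674.9, chromosome 12, 6913745 to 6923698) encodes the gamma subunit of enolase, known as neuron-specific enolase. It stood at 80.0, 78.6 and 82.1 CPM in control replicates and at 68.2, 44.3 and 49.4 CPM with the shSTN1 label. The groups did not overlap, and shSTN1 replicate 1 lay closest to control. ENO2 fell by 0.57 on the log2 scale in edgeR (SE 0.188, adjusted p = 3.81e-05). From limma-voom the 95% interval was -0.81 to -0.38. LRRC23, which overlaps ENO2 on the same strand, had 286 and 254 reads, few beside the 4934 and 3235 of ENO2.

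The enzymes were set beside their paralogs within each library, on reads per length of exon. ENO2 made up 3.05%, 3.17% and 2.98% of ENO1, ENO2 and ENO3 together in control and 2.18%, 1.56% and 1.79% in the shSTN1-labelled libraries. The mean share fell from 3.07% ± 0.0985 to 1.84% ± 0.314 (two-sided exact permutation p = 0.1, the smallest that 3 against 3 can give). UCHL1 made up 94.0%, 94.1% and 95.4% of UCHL1 and UCHL3 in control and 14.1%, 15.8% and 27.5% in the shSTN1-labelled libraries (exact permutation p = 0.1). UCHL3 was itself lower, by a log2 fold change of -1.33, and so was UCHL5, which is not in this share, at -1.41. ENO3, the muscle enolase, rose from 12.8 ± 0.825 to 30.2 ± 1.78 CPM. ENO1, the common enolase, passed with a log2 fold change of 0.16 (edgeR adjusted p = 0.0244), which turned to -0.035 without scaling factors. It missed the threshold in 6 of the alternatives, among them those without control replicate 2 (edgeR adjusted p = 0.0987) or shSTN1 replicate 1 (0.16). Of the 7 genes listed here, 3 were lower, BAP1 (-0.91) among them, and 2 higher, against 4 and 1 without scaling factors. With scaling factors 71.4% passed, near the 74.1% of all genes tested.

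**Figure D2:**
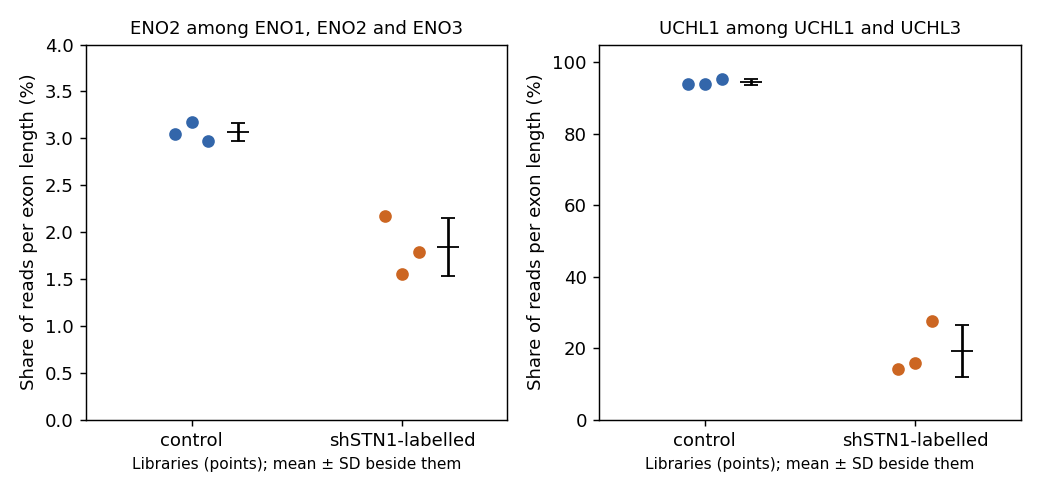
Share of ENO2 among the enolase genes and of UCHL1 among UCHL1 and UCHL3, in percent of reads per exon length, with 1 point per library and the mean ± SD of 3 libraries beside them. The ENO2 share lies at 2.98% to 3.17% in control and 1.56% to 2.18% in the shSTN1-labelled libraries, and the UCHL1 share at 94.0% to 95.4% and 14.1% to 27.5%.

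STMN2 (ENSG00000104435.13, chromosome 8, 79610814 to 79666175) encodes a neuronal stathmin that regulates microtubules in growing axons. It had 1, 8 and 6 reads in control and 1, 1 and 0 in the shSTN1-labelled libraries. Control replicate 1 was as low as the shSTN1-labelled libraries, so the groups overlapped in reads. The ratio of the summed levels was 7.30 with a 95% exact interval of 1.70 to 65.8, which covers counting error only. STMN1, expressed in dividing cells, was abundant and rose by 0.44 on the log2 scale, and STMN3 fell by 0.41.

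Around STMN2, 40 genes of the neuronal cytoskeleton and of neuronal RNA binding were listed, and 34 were tested. Of these, 24 were lower, 8 higher and 2 did not pass (median -1.64). For all genes tested the shares were 38.5% lower and 35.6% higher. The neurofilament gene NEFM, which is also among the embryonic kidney line markers, fell from 136 ± 6.20 to 0.0678 ± 0.0739 CPM and NEFL from 91.1 ± 2.37 to 0.234 ± 0.0553 CPM. DPYSL5 (-6.74), which encodes a collapsin response mediator protein, TUBB2B (-0.57) and the splicing factor gene RBFOX2 (-0.95) were lower too. NOVA1, a neuronal splicing factor, had 706 reads against 0 and was at least 229-fold lower. Other neuronal genes were higher, among them the kinesin gene KIF1A (508 ± 6.40 against 228 ± 17.1 CPM), BASP1 (1.53), DPYSL2 (1.09) and TUBB3 (1.72), the last named after its value was seen. Glial and Schwann cell markers gave 4 tested genes, of which 3 were lower (AQP4, GFAP and OLIG2) and 1 higher (MBP), while S100B had 0 reads in both groups. The summed level of all 8 listed was higher, at 92.6 to 98.1 CPM against 27.7 to 34.1 in control.

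**Figure D3:**
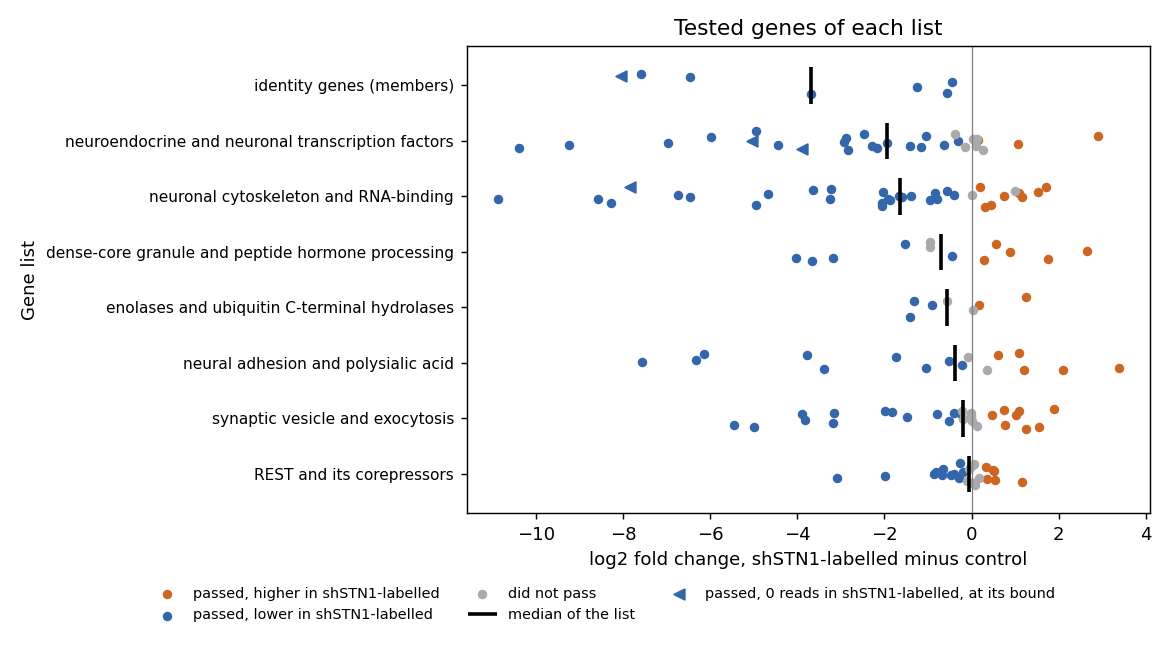
Log2 fold change of every tested gene in each list, shSTN1-labelled minus control, with the list's median as a black bar. Triangles mark genes with 0 reads in the shSTN1-labelled libraries, drawn at the bound from a floor of 3 reads. The 7 tested identity genes all lie below 0, with a median of -3.69, whereas the other lists hold genes on both sides.

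Per length of exon, control levels ran in the order UCHL1 (69.3 ± 6.88 CPM per kb), ENO2 (18.7 ± 0.409), SYP (6.66 ± 0.115), ISL1 (4.68 ± 0.246), INSM1 (4.63 ± 0.742), NCAM1 (2.22 ± 0.0813), CHGA (0.218 ± 0.0522), STMN2 (0.103 ± 0.0721) and NEUROD1 (0.00901 ± 0.0156). ISL1 and INSM1 did not differ beyond their spread, and the libraries of STMN2 and NEUROD1 overlapped. In the shSTN1-labelled libraries the order was ENO2 (12.6 ± 2.94), SYP (4.88 ± 0.579), ISL1 (0.373 ± 0.198), UCHL1 (0.366 ± 0.114), CHGA (0.0884 ± 0.0785), NCAM1 (0.0255 ± 0.0128) and STMN2 (0.0134 ± 0.0116), with INSM1 and NEUROD1 at 0. There, ISL1 and UCHL1 overlapped, and CHGA, NCAM1 and STMN2 each overlapped with the others. Genes at 1 CPM or more on average numbered 6 of 9 in control and 3 of 9 in the shSTN1-labelled libraries (ENO2, SYP and ISL1).

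**Figure D4:**
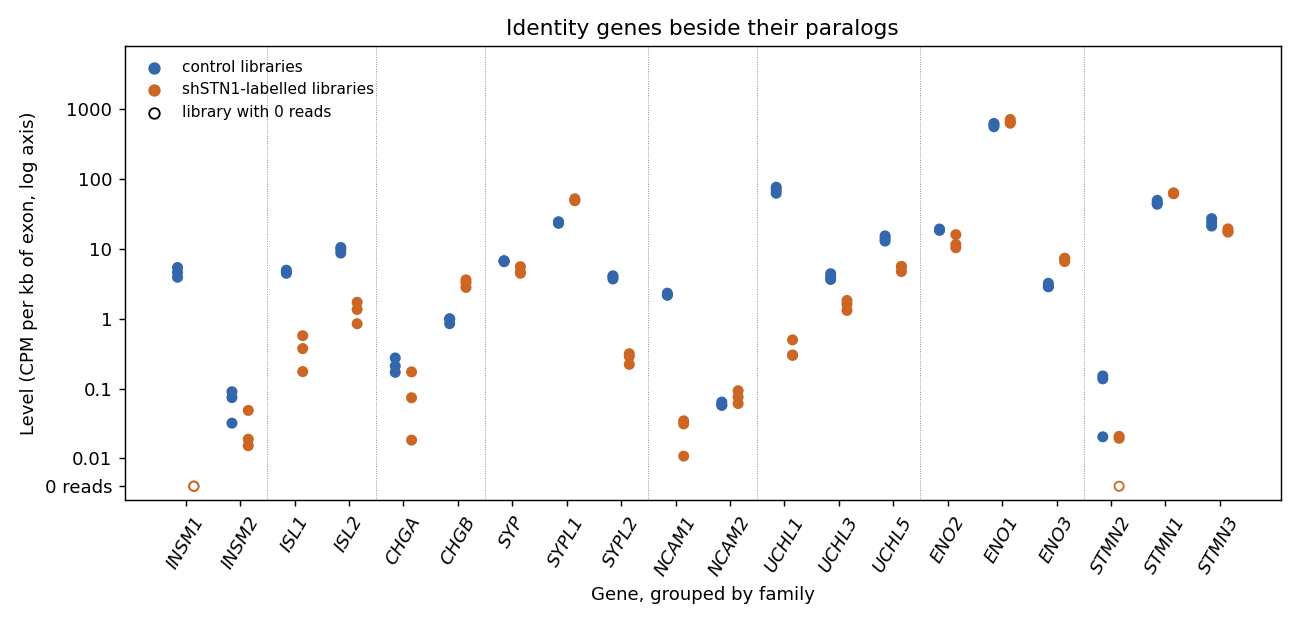
Level in CPM per kb of exon on a log axis for the identity genes and their paralogs, with 1 point per library and open points at 0 reads. ENO1, STMN1 and SYPL1 lie above their family members ENO2, STMN2 and SYP in every library, whereas UCHL1 is above UCHL3 and UCHL5 in control only.

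REST is a repressor that keeps many neuronal genes, STMN2 and synaptic genes among them, silent outside the nervous system. REST itself stood at 28.1 ± 2.14 CPM with the control hairpin and at 29.8 ± 1.84 with the other. The log2 fold change was 0.08 (edgeR adjusted p = 0.454), with -0.11 to 0.27 as the 95% interval of limma-voom. A list of 25 genes held REST, its corepressors and regulators of REST, and all 25 were tested. Of these, 11 were lower, 6 higher and 8 did not pass (median -0.06), and without scaling factors 15 were lower and 4 higher. With scaling factors 68% of them passed, against 74.1% of all genes tested. SMARCA4, a chromatin remodelling ATPase, had the lowest value, falling from 399 ± 11.2 to 46.7 ± 2.42 CPM. KDM5C (-0.67), GSE1 (-0.41) and SIN3A (-0.27) were lower, and CTDSP2 (0.33), CTDSP1 (0.53), RCOR1 (0.51) and HDAC4 (1.16) higher, of which CTDSP2 did not pass without scaling factors (edgeR adjusted p = 0.0672). HDAC1 and HDAC2 did not pass.

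The start regions of the genes are shown because members with start regions above the median of all promoters in G and C differed widely in their change. RefSeq start regions (GRCh38.p14) were found for ISL1, NEUROD1, CHGA, SYP, UCHL1 and ENO2 among those shown here. The 250 bases before the RefSeq start were searched on both strands. RefSeq starts differ from the gene bounds given above. The windows of UCHL1, ENO2 and NEUROD1 lie inside those bounds, and those of ISL1, CHGA and SYP lie partly inside. The motifs were TCAGCAC and GGACAG (parts of the REST site), CAGCTG and CAGATG (E-boxes, the sites of basic helix-loop-helix factors) and GGGCGG (the GC box). The lines give UCHL1 and ISL1, which fell most among the 6, and SYP and ENO2, which fell least, 5′ to 3′ along the gene with every match in capitals.
UCHL1, chr4:41256678-41256927, plus strand: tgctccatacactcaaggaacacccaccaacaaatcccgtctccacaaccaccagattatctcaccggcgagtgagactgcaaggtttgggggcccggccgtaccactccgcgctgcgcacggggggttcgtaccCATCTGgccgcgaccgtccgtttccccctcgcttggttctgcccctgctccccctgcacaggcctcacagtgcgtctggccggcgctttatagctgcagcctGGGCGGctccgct
ISL1, chr5:51383198-51383447, plus strand: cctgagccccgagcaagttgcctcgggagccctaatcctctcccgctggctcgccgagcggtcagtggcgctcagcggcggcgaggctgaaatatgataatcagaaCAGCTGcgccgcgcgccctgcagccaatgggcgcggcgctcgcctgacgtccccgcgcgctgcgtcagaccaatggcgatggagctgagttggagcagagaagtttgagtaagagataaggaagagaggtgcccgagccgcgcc
SYP, chrX:49200194-49200443, minus strand: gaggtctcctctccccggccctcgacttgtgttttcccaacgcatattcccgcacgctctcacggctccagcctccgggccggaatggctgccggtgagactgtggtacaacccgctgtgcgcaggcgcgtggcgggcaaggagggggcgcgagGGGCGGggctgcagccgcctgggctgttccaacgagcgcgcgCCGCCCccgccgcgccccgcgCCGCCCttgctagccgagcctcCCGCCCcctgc
ENO2, chr12:6914330-6914579, plus strand: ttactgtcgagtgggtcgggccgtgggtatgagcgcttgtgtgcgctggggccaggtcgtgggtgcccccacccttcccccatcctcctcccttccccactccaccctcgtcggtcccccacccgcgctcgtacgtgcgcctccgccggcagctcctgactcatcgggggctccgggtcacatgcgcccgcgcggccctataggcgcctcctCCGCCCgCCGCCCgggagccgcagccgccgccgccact
GGGCGG or its reverse complement occurred 4 times in SYP, 2 times in ENO2, 1 time in UCHL1 and 0 times in ISL1, and 42.6% of 35116 promoters of this length held it. It also occurred 3 times in NEUROD1, a gene near the detection limit, and 1 time in CHGA, whose windows are not printed. Whether these matches go with the change was not tested. CAGCTG was found in ISL1, and in 14.0% of promoters. CAGATG was found in UCHL1, on the reverse strand, and in 12.2% of promoters. TCAGCAC and GGACAG, held by 3.55% and 17.2% of promoters, were not among the letters of any of the 6 windows. No window is given for INSM1, NCAM1 and STMN2, so this says nothing of them. The share of G and C was 65.2% in ISL1, 64.4% in UCHL1 and 74.0% in SYP and ENO2. Over all promoters the median was 58.0% (quartiles 46.4% and 68.0%), so ISL1 and UCHL1 lay between the quartiles. The 6 windows held 20 to 31 CG pairs, against a median of 11 (quartiles 3 and 23).

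The 9 genes lie on 9 different chromosomes, so they share no neighbourhood. Within 1 Mb of INSM1, 7 other genes were tested, with log2 fold changes between -1.72 (KIZ) and 1.54 (RIN2), all far from the bound of INSM1. Around NCAM1, the 14 tested genes had a median of 0.22, and the lowest was the antisense AP000802.1. Around ISL1, 3 genes were tested, and the divergent transcript AC010478.1, which starts at -0.1 kb from the ISL1 start, had a log2 fold change of -4.78 (edgeR adjusted p = 4.01e-08). Over all genes tested, 38.5% were lower and 35.6% higher, with a median of -0.03. UCHL1 had 7 of 9 neighbours lower and 1 higher (median -0.83). CHGA had 10 of 16 lower and 2 higher (median -0.46). Around SYP (10 of 34 lower, 13 higher, median 0.11) and ENO2 (15 of 46 lower, 18 higher, median 0.06) the neighbours were mixed, as all genes were. These counts of neighbours were not tested.

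**Figure D5:**
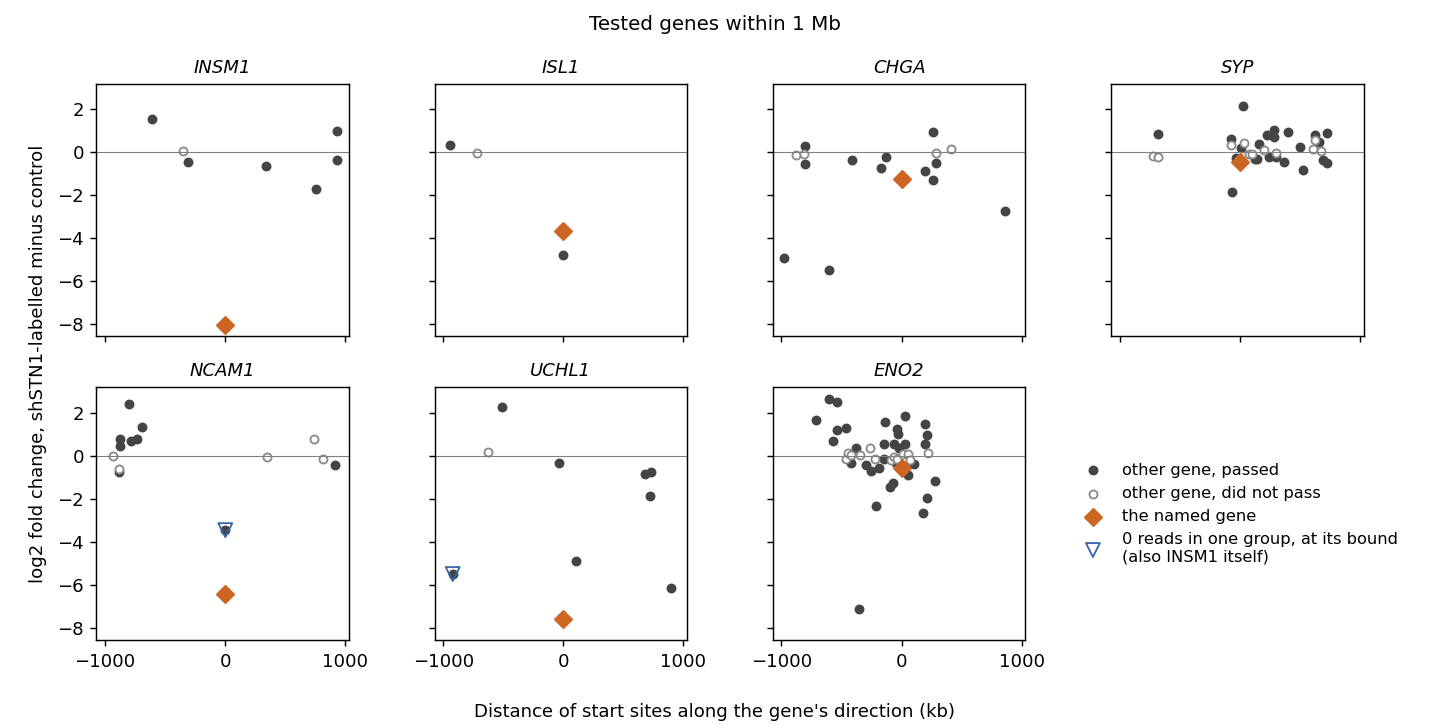
Log2 fold change of each tested identity gene (diamond) and of all tested genes whose start lies within 1 Mb (circles, filled where the test was passed), against the distance between starts in kb. Genes with 0 reads in a group, INSM1 included, are at their bound. As drawn, INSM1 lies below its 7 tested neighbours, NCAM1 below its 14 and UCHL1 below its 9.

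The pattern over the 6 libraries was compared with that of 17450 other genes by Euclidean distance of log2 CPM, for the 3 tested members with the largest fall. Nearest to INSM1 were TWIST1 (14.1 CPM in control), PABPC4L (13.4) and ADCYAP1R1 (11.6), each with 0 reads in the shSTN1-labelled libraries. Nearest to UCHL1 were DPYSL5 (122 against 1.13 CPM), ADAMTS1 (284 against 0.951) and GPC3 (128 against 1.56). Nearest to NCAM1 were CELF2 (32.5 against 0.298 CPM), MARC1 (34.5 against 0.403) and SATB1 (24.5 against 0.322). With 2 groups of 3 libraries, this distance is set mainly by the mean level in each group.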

How the data were processed

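Whole-number read counts per gene, not normalized, were deposited by the authors for 3 control and 3 shSTN1-labelled libraries. Per the submitters' processing notes, cutadapt, FastQC, STAR 2.7.2b and featureCounts 2.0.1 were used with the build GRCh38. Which annotation release and strand setting were used is not given in the sources used here, so overlapping and antisense genes and close paralogs can share reads. The table had 60668 rows, of which 45 pseudoautosomal copies were left out. No column was left out. Of the rest, 58516 matched GENCODE 29 by identifier without version, which gave positions and exon lengths. All 278 list entries matched by symbol.

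Samples were grouped by title. Counts were fitted with edgeR 4.0.16 (R 4.3.3): filterByExpr, TMM factors, robust quasi-likelihood test, no covariates, Benjamini-Hochberg over 17451 genes, threshold 0.05. CPM used TMM-scaled library sizes. SEs are of the difference of mean log2 CPM (prior count 2) and did not come from edgeR's fit. Intervals came from limma-voom 3.58.1. Groups without reads were bounded with 3 reads, and 1 to 3 reads were given a 95% exact interval. The code was tested on simulated data. Between replicates, counts differed by more than sampling noise, with chi-square over degrees of freedom of 3.02 to 8.89. Named were all 9 genes, STN1, CDKN2A and IRS4, and from each list up to 5 genes in each direction past the threshold without overlap, highest in level. Some of these are given as counts only, and genes outside the rule were chosen after their values were seen. The members, the 7 lists and the 8 marker lists were chosen with earlier results of these data known. Of the other marker lists, leukocyte genes had 2 higher and 2 lower of 4 tested and endothelial genes 1 lower of 2. Fibroblast genes had 3 higher of 4, and acinar genes 0 tested. Among all genes tested, 35.6% were higher and 38.5% lower. Alternatives were other scaling, filters, DESeq2 1.42.0, limma-voom, a replicate block, a stricter threshold and leaving out each library. Figures used matplotlib 3.10.9.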

Additional observations from a re-analysis of the deposited data

How the results depend on the processing

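INSM1, ISL1, NCAM1, UCHL1, SYP and ENO2 stayed lower and past the threshold under all 15 alternatives. CHGA stayed lower in the 14 alternatives that tested it, with adjusted p from 0.00747 to 0.205, and at 1 CPM in 3 libraries it was not tested. Genes lower among the 9 numbered 6 or 7 and genes higher 0 throughout. With each library left out in turn, 6 to 7 of the 9 genes were lower and 12586 to 12857 genes were called. The ENO2 share difference was then -1.39 to -1.08 percentage points and the UCHL1 share difference -79.6 to -72.9. List genes numbered 34 to 36 higher and 82 to 86 lower (37 and 85 with all libraries, 28 and 100 without scaling factors). Beside them, 35.6% of all genes tested were higher and 38.5% lower with all libraries. Without scaling factors, 4940 of all genes were higher and 8060 lower. Without scaling factors the median over all genes moved from -0.03 to -0.22, STN1 reached -0.35 (edgeR adjusted p = 0.00909), and ENO1 (-0.035, adjusted p = 0.622) and TCF3 (-0.056, adjusted p = 0.4) changed sign. The cause was not tested. The replicate block gave 12742 genes and 7 of the 9 genes lower. The libraries were not treated as paired from the start. In a later check, deviations of same-numbered libraries correlated at -0.0123, 0.0171 and -0.0337. CHGA, STMN2 and NEUROD1 had at most 19, 8 and 2 reads in a library, so their values carry wide counting error.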
